A study of Bos taurus with 13 samples.

Results

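Expression of 7 genes of cholesterol handling was followed in the blood of dairy cows. They were chosen by name, with earlier results of these data known. They are 4 enzymes of cholesterol synthesis (*HMGCS1*, *IDI1*, *FDFT1* and *SQLE*), the sterol sensor *INSIG1*, the transcription factor gene *SREBF2* and the efflux pump gene *ABCA1*. All 7 were present among the 16095 named genes of the count tables, and all 7 passed the filter on low counts. The cows were lactating, clinically healthy Italian Red Pied cattle, also called Italian Simmental. They were taken from the high and the low tail of milk cortisol, a marker of stress, and had no experimental treatment. RNA of whole blood, preserved at sampling in PAXgene tubes, was sequenced without globin depletion. Counts of 7 cows of the high group and 6 cows of the low group were analysed here, 1 library per cow, and the cows are called high cow 1 to 7 and low cow 8 to 13 after their labels. The labels state that 10 cows were selected at each end.

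Cells make cholesterol from acetyl-CoA through mevalonate and squalene. When sterols in the endoplasmic reticulum are low, the protein SREBP2, encoded by *SREBF2*, is carried by SCAP to the Golgi, is cleaved, and switches on the genes of synthesis and uptake. When sterols are plentiful, INSIG1 holds the SCAP complex back, and *INSIG1* is itself a target of SREBP2. Surplus cholesterol, through its oxidised forms, activates the liver X receptors (LXR), which switch on *ABCA1*. In dairy cows the liver and the mammary gland are the usual tissues of interest for this pathway, and blood leukocytes also make, take up and export cholesterol.

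The depth of the libraries, as reads on named genes, was 11045599 to 28124575. A gene without a read in a cow could still have had up to 3 counts, which is 0.272 CPM (counts scaled to the size of the library) in the shallowest and 0.107 CPM in the deepest library, for counting error only. The leukocyte marker *PTPRC* (951 to 1522 CPM) and the haemoglobin gene *HBB* (115 to 7511 CPM) were counted in all 13 cows, as blood should show. The haemoglobin genes *HBB*, *HBG*, *HBM* and *HBQ1* together held 0.0282% to 0.815% of the counts in the high group and 0.0114% to 0.0552% in the low group. No other haemoglobin gene entered this share, so it is not the whole of the haemoglobin RNA. High cow 4 stood apart on the first principal component of all tested genes, which held 29.0% of the variance. The sign of this component was set so that its r with *ABCA1* was positive. High cow 4 had a score of 62.4, against scores from -31.3 to 19.1 in the other 12 cows. Fold changes of the 7 genes, and several of their correlations, are also given without this cow. The labels give no extraction, library or sequencing batch, so no value within batches could be computed.

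The synthesis genes and their regulators were well expressed in blood, and *ABCA1* was not. Compared per kilobase of exon, so that genes of different length can be set side by side, the mean level over 13 cows was 93.0 ± 12.4 (SD) CPM per kb for *FDFT1* and 81.9 ± 7.86 for *SREBF2*. Their ranges over cows overlapped. Within a cow *FDFT1* was the higher, except in high cow 3 (73.9 against 89.5) and low cow 8 (85.1 against 91.6). Both lay high among the 11033 tested genes, with 90.1% and 88.8% of genes at or below their level, and the median gene was at 12.7 CPM per kb. *SQLE* followed at 39.5 ± 6.74, *HMGCS1* at 35.4 ± 7.06 and *IDI1* at 35.0 ± 5.75 CPM per kb. These means differed by less than the SD between cows of any of the 3 genes. Within a cow *SQLE* was nonetheless above *HMGCS1*, except in high cow 4 (51.6 against 52.4). *INSIG1* was at 26.0 ± 2.71 CPM per kb. Its highest cow (31.7) overlapped the lowest cow of *IDI1* (28.4), but within every cow *INSIG1* was below *IDI1*. No cow placed *SREBF2* (lowest 72.3) as low as the highest value of *SQLE* (51.6). *ABCA1*, at 0.763 ± 0.430 CPM per kb, was far below the other 6 genes in every cow, and 7.3% of tested genes were at or below its level. Whole blood is a mixture, so in all that follows fewer cells of a type and less RNA per cell cannot be told apart.

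*HMGCS1*, the enzyme that makes HMG-CoA from acetyl-CoA units, lies on chromosome 20 from 31451386 to 31474239 (plus strand, UMD3.1 as in the count tables, 12 exon blocks of 2123 bp in all). Its lowest, median and highest values were 57.7, 79.0 and 111 CPM in the high group and 60.9, 68.7 and 85.1 CPM in the low group. The lowest and the highest cow of all 13 were both in the high group, and 4 of its 7 cows were above the median of the low group. The means were 79.1 ± 18.5 CPM (SD, n = 7) and 70.6 ± 8.98 CPM (n = 6). The log2 fold change, high against low, was 0.16 (SE 0.14, 95% interval -0.14 to 0.47), and 0.062 without high cow 4.

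*IDI1*, which converts isopentenyl diphosphate to the isomer used to build longer chains, lies on chromosome 13 from 46682710 to 46685834 (plus strand, 1351 bp of exon). Its lowest, median and highest values were 42.0, 46.5 and 64.4 CPM in the high group and 38.4, 41.7 and 54.1 CPM in the low group. All 7 cows of the high group were above the median of the low group, yet the groups overlapped, because low cows 9 and 11 (49.3 and 54.1 CPM) were above 5 of the 7 cows of the high group. From means of 49.8 ± 8.56 and 44.2 ± 6.09 CPM, the log2 fold change was 0.17 (SE 0.12, interval -0.09 to 0.43). It was 0.12 without high cow 4, 0.096 without high cow 1 and 0.24 without low cow 11.

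*FDFT1*, squalene synthase, is the first enzyme committed to sterols, and lies on chromosome 8 from 7427461 to 7453906 (minus strand, 2022 bp of exon). It had 149, 174 and 235 CPM as the lowest, median and highest values of the high group and 172, 182 and 224 CPM in the low group. The high group held both ends, and the group means, 188 ± 30.9 and 188 ± 19.2 CPM, were nearly equal, with a log2 fold change of -0.01 (SE 0.11, interval -0.25 to 0.23) that was 0.02 without high cow 4.

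*SQLE*, squalene epoxidase, is one of the rate-limiting enzymes of the sterol branch, and lies on chromosome 14 from 16723393 to 16745626 (minus strand, 2153 bp of exon). Its lowest, median and highest values were 67.0, 88.7 and 111 CPM in the high group and 67.0, 77.0 and 100.4 CPM in the low group. The lowest cows of the groups were thus equal to 3 digits, and 5 of 7 high cows were above the low median. With means of 88.3 ± 16.2 and 81.1 ± 12.6 CPM, *SQLE* had a log2 fold change of 0.12 (SE 0.13, interval -0.16 to 0.40), which was 0.059 without high cow 4.

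*INSIG1*, on chromosome 4 from 117906798 to 117920021 (plus strand, 2762 bp of exon), was among the steadiest of the 7 genes. It had 63.7, 72.2 and 87.6 CPM as the lowest, median and highest values of the high group and 64.3, 68.0 and 78.3 CPM in the low group. The groups overlapped over most of this range, their means were 73.7 ± 8.74 and 69.4 ± 5.56 CPM, and the log2 fold change was 0.09 (SE 0.10, interval -0.12 to 0.29). That estimate was 0.059 without high cow 4.

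*SREBF2*, on chromosome 5 from 113377699 to 113414729 (plus strand, 3483 bp of exon), had 255, 282 and 344 CPM as the lowest, median and highest values of the high group and 252, 281 and 319 CPM in the low group. The medians differed by less than 1 CPM. The log2 fold change was 0.04 (SE 0.09, interval -0.16 to 0.24), from means of 289 ± 32.3 and 281 ± 22.6 CPM. Without high cow 2, where it was highest, the estimate was -0.002, and without high cow 4 it was 0.065. The locus of *bta-mir-33a*, a microRNA hairpin known to target *ABCA1*, lies within the span of *SREBF2*. It had 12 counts in all, in 4 of 13 cows and at most 4 in a cow, and these were not libraries of small RNA, so they do not measure the mature microRNA.

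*ABCA1*, which loads cholesterol from the cell onto apolipoprotein A-I, lies on chromosome 8 from 96274035 to 96390357 (minus strand, 50 exon blocks of 7427 bp in all). It had 35 to 227 counts per cow. Its lowest, median and highest values were 2.85, 4.72 and 14.5 CPM in the high group and 3.11, 4.78 and 9.92 CPM in the low group. The medians were close and 1 cow in each group was far above the others, high cow 4 and low cow 9. The log2 fold change was 0.12 (SE 0.36, interval -0.63 to 0.88), from means of 5.89 ± 3.98 and 5.41 ± 2.32 CPM. It was -0.28 without high cow 4 and 0.38 without low cow 9. Of the cows left out 1 at a time, only high cow 4 turned the sign, so the direction rests on that cow. The group means of log2 CPM differed by only 0.010.

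**Figure D1:**
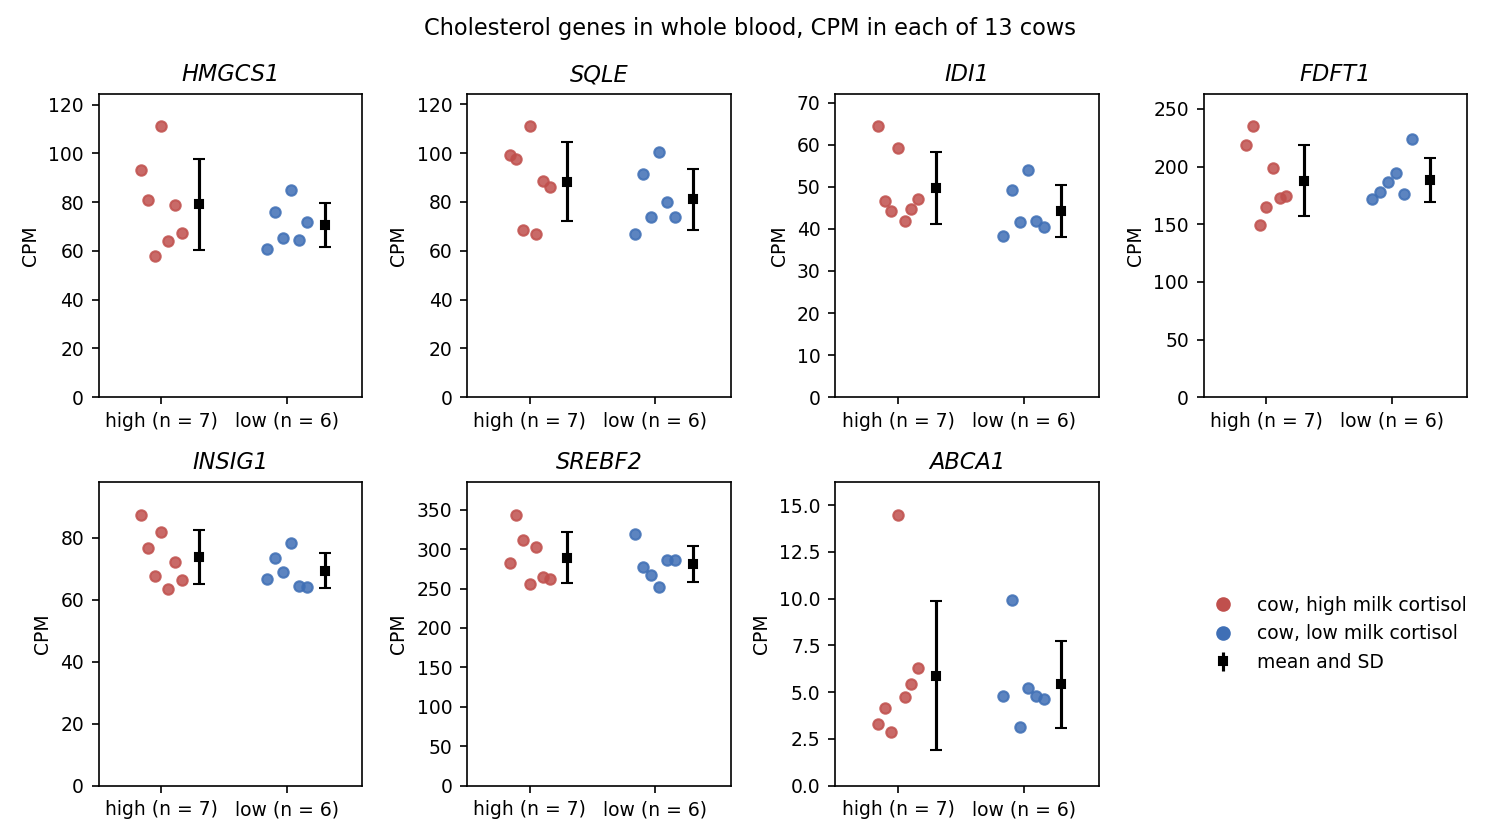
CPM of the 7 genes (vertical axes, each from 0) in each of 13 cows, with cows of the high group in red and cows of the low group in blue, in order of cow number from left to right within a group. Black squares and bars are the mean and SD of each group, and in all 7 panels the groups overlap, with 1 cow of each group well above the rest for *ABCA1* (14.5 and 9.92 CPM).

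No difference between the groups was found for any of the 7 genes. By edgeR's quasi-likelihood test with Benjamini-Hochberg adjustment over 11033 genes, the adjusted p was 0.998 for each of them, and the unadjusted p ran from 0.193 (*IDI1*) to 0.960 (*FDFT1*). The two-sided exact permutation test over the 1716 assignments of 13 cows to 7 and 6, which can reach 0.00058, gave p from 0.199 (*IDI1*) to 0.982 (*ABCA1*). As background, edgeR called 0 of 11033 genes (0%) at an adjusted p of 0.05, 231 (2.09%) had an unadjusted p below 0.05, and DESeq2 called 1 gene, *CYP4X1*, which was named after its values were seen and is not of this pathway. The groups did not overlap for 0 of the 7 genes, against 3 of all tested genes (0.0272%), which are *ACTRT3*, *HIST1H2BN* and *SNED1*. The width of the intervals differed between the genes and with the model. For *HMGCS1*, *IDI1*, *FDFT1*, *SQLE*, *INSIG1* and *SREBF2* the log2 fold change farthest from 0 inside a 95% interval was 0.47, whereas for *ABCA1* it was 0.88. With the haemoglobin share as a covariate the edgeR estimate of *HMGCS1* was 0.31 (interval -0.06 to 0.68, unadjusted p = 0.0979) and that of *IDI1* 0.24 (interval -0.10 to 0.57). It was 0.19 for *SQLE*, 0.18 for *INSIG1*, 0.16 for *FDFT1* (interval -0.11 to 0.44), 0.12 for *SREBF2* and -0.12 for *ABCA1* (interval -1.12 to 0.88). The haemoglobin share reached 0.815% in the high and 0.0552% in the low group, so this covariate and the group cannot be fully told apart. With the interferon score described further on as a covariate, an alternative chosen after seeing the data, it was 0.02 for *HMGCS1* (interval -0.29 to 0.34), 0.03 for *IDI1*, 0.01 for *INSIG1*, 0.11 for *SREBF2*, -0.04 for *SQLE* and -0.11 for *ABCA1*. None of the 7 genes had an unadjusted p below 0.05 in either fit.

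The spread between cows set *ABCA1* apart from the other genes. The highest cow was 5.10 times the lowest for *ABCA1*, against 1.93 times for *HMGCS1*, 1.68 for *IDI1*, 1.66 for *SQLE*, 1.57 for *FDFT1*, 1.38 for *INSIG1* and 1.36 for *SREBF2*. The coefficient of variation of CPM over 13 cows was 56.4% for *ABCA1*, and 94.3% of tested genes were at or below it. It was 10.4% for *INSIG1* and 9.59% for *SREBF2*, with only 7.7% and 5.4% of genes at or below. *HMGCS1* (19.9%), *SQLE* (17.1%), *IDI1* (16.4%) and *FDFT1* (13.4%) lay under the median gene, at 21.3%. The biological coefficient of variation that edgeR fits kept *ABCA1* at the top (43.9%) and *INSIG1* and *SREBF2* at the bottom (both 13.8%), with a median over genes of 22.1%. It is fitted around the group means and drawn toward a trend over all genes. It is thus not the value above with counting error removed, and for *INSIG1* and *SREBF2* it was the larger of the 2 measures. Without high cow 4 the coefficient of variation of CPM of *ABCA1* was 37.7%.

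Although no gene passed the test between the groups, 4 of the 7 rose and fell together from cow to cow. *HMGCS1*, *SQLE*, *IDI1* and *INSIG1* form 6 pairs, and all 6 were positively correlated in log2 CPM over 13 cows. Of the 21 pairs among 7 genes these 6 had an adjusted permutation p below 0.05 (Benjamini-Hochberg over 21 pairs, 100000 permutations, two-sided), and the other 15 did not. Pearson's r was highest for *HMGCS1* and *SQLE*, at 0.910 (adjusted p = 0.00021, permutation p = 1e-05, the smallest they can give), with Spearman's rho of 0.934 (permutation p = 3e-05). For *IDI1* and *INSIG1* r was 0.909 (adjusted p = 0.00021, permutation) and rho 0.780 (permutation p = 0.00236). The other 4 of these pairs had r from 0.841 to 0.859 (adjusted permutation p from 0.00077 to 0.00126) and rho from 0.775 to 0.874 (permutation p from 0.00024 to 0.00274).

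The same ordering of cows can be read from the values themselves. High cows 1 and 4 were the highest of all 13 for *HMGCS1* (93.3 and 111 CPM), *IDI1* (64.4 and 59.3 CPM) and *INSIG1* (87.6 and 81.8 CPM), and high cow 4 was the highest for *SQLE* (111 CPM). Low cow 11 was the highest of its group for all 4 genes. High cow 5 was the lowest of its group for *SQLE*, *IDI1* and *INSIG1*, and low cow 8 the lowest of its group for *HMGCS1*, *SQLE* and *IDI1*.

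The correlations among these 4 genes were also seen without the extreme cows and within each group. Without the 2 cows farthest from the median of the first gene, r of the 6 pairs was 0.690 to 0.887 (n = 11). Within the high group it was 0.761 to 0.928 (n = 7, exact permutation p from 0.00238 to 0.0568), and within the low group 0.782 to 0.982 (n = 6, exact permutation p from 0.00139 to 0.0681). When cows were left out 1 at a time, r of the 6 pairs stayed between 0.812 and 0.934, and all 6 kept an adjusted permutation p below 0.05. As background for *HMGCS1*, 0.00907% of all other tested genes had an r with it as high as *SQLE* had, and its median r with all tested genes was -0.01. For the other pairs this share was at most 0.145%. The 4 genes also share normalization factors and library depth in each cow, and their r with log2 depth was -0.0752 to 0.0934.

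**Figure D2:**
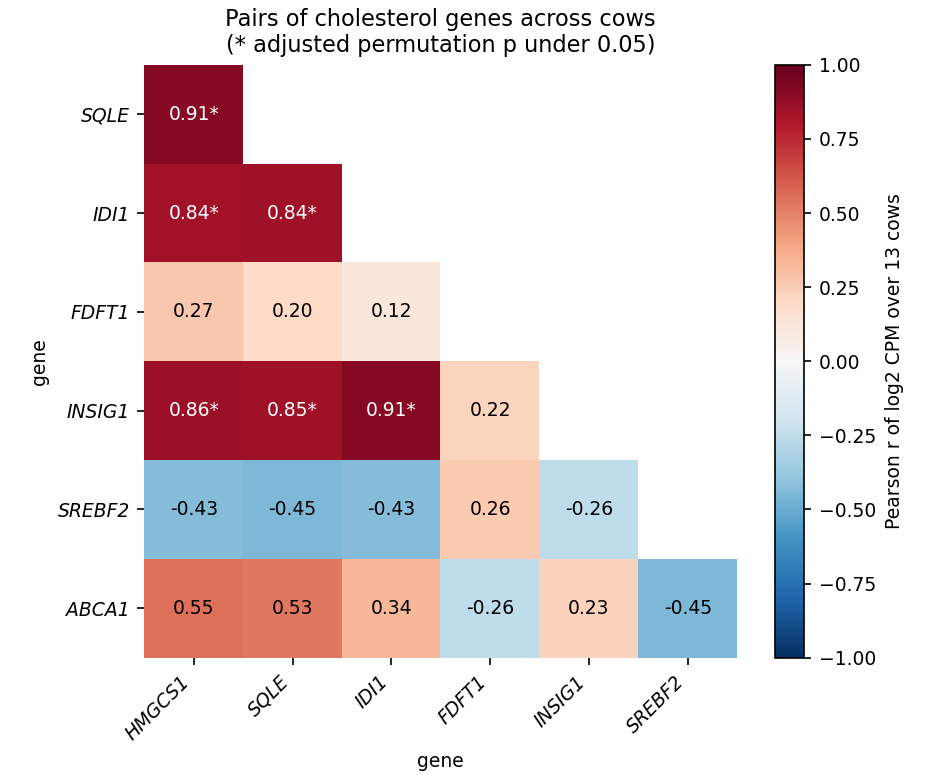
Pearson's r of log2 CPM over 13 cows for each of the 21 pairs of genes, with red for positive and blue for negative r and a star where the adjusted permutation p was below 0.05. The 6 starred cells (0.84 to 0.91) are the pairs of *HMGCS1*, *SQLE*, *IDI1* and *INSIG1*, and the rows of *FDFT1*, *SREBF2* and *ABCA1* hold no star.

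*FDFT1*, an enzyme of the same branch as *SQLE*, did not follow them in the same way. Its r was 0.269 with *HMGCS1*, 0.196 with *SQLE*, 0.117 with *IDI1* and 0.224 with *INSIG1* (adjusted permutation p from 0.498 to 0.705), and 27.7% of tested genes had an r with *FDFT1* as high as *HMGCS1* had. High cow 4, with the highest *HMGCS1* (111 CPM), had the lowest value but 1 of *FDFT1* (165 CPM). Without this cow r of *FDFT1* with *HMGCS1* was 0.649 (permutation p = 0.0229, adjusted p = 0.0686), with *SQLE* 0.431, with *IDI1* 0.336 and with *INSIG1* 0.416. The first principal component moved with *FDFT1* in the opposite direction (r = -0.507, rho = -0.593, permutation p = 0.0758 and 0.0359) from *HMGCS1* (r = 0.678, rho = 0.440, permutation p = 0.0121 and 0.137) and *SQLE* (r = 0.700, rho = 0.615, permutation p = 0.00451 and 0.0285). Without the 2 cows farthest from its median, these r were -0.331 with *FDFT1*, 0.425 with *HMGCS1* and 0.554 with *SQLE*. In residuals from that component, an alternative chosen after seeing the data, r of *FDFT1* was 0.966 with *HMGCS1*, 0.894 with *SQLE*, 0.777 with *INSIG1* and 0.703 with *IDI1* (adjusted permutation p from 0.00021 to 0.011). There 10 pairs passed instead of 6, and the 6 pairs above were among them. The component was computed from all tested genes, these included, and high cow 4 lay far from the other cows on it (score 62.4). Residual r follow by calculation from the r of the genes with each other and with the component. The residuals, and the 10 pairs that passed in them, are thus no separate evidence that *FDFT1* follows the other genes. What this component stands for was not tested.

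The RNA of *SREBF2*, the regulator of the synthesis genes, had negative r with the 4 genes that moved together and a positive r with *FDFT1* (0.261, adjusted permutation p = 0.498). Its r was -0.435 with *HMGCS1*, -0.447 with *SQLE*, -0.431 with *IDI1* and -0.256 with *INSIG1*, and none of these passed (adjusted permutation p from 0.246 to 0.498). Spearman's rho was -0.610 for *SQLE* (permutation p = 0.0304, adjusted p = 0.0914). Without high cow 2, which had the most *SREBF2* (344 CPM), r was -0.761 with *SQLE* (adjusted permutation p = 0.0125) and -0.669 with *HMGCS1* (adjusted permutation p = 0.0448), so 1 cow decides whether these pairs pass. Without high cow 4 the r of *SREBF2* was -0.258 with *HMGCS1*, -0.301 with *SQLE*, -0.259 with *IDI1* and -0.091 with *INSIG1*. In residuals from the first principal component they were -0.108, -0.111, -0.113 and, for *INSIG1*, 0.111. The RNA of *SREBF2* does not measure the cleaved protein.

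*ABCA1* had positive r with *HMGCS1* (0.551), *SQLE* (0.530), *IDI1* (0.336) and *INSIG1* (0.230), and none passed (adjusted permutation p from 0.155 to 0.511). These values also depended on single cows. Without high cow 4 they were 0.182, 0.306, 0.0432 and -0.0493, and without high cow 1 they were 0.745, 0.675, 0.697 and 0.535, where the first 3 passed (adjusted permutation p from 0.0211 to 0.032). *ABCA1* and *SREBF2* had r = -0.448 (rho = -0.582, permutation p = 0.123 and 0.0398), which did not pass, and r was -0.306 without high cow 4. The first principal component, on which high cow 4 stood apart, had r = 0.715 with *ABCA1* (rho = 0.632, permutation p = 0.00958 and 0.0241), and r = 0.441 without the 2 cows farthest from its median.

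**Figure D3:**
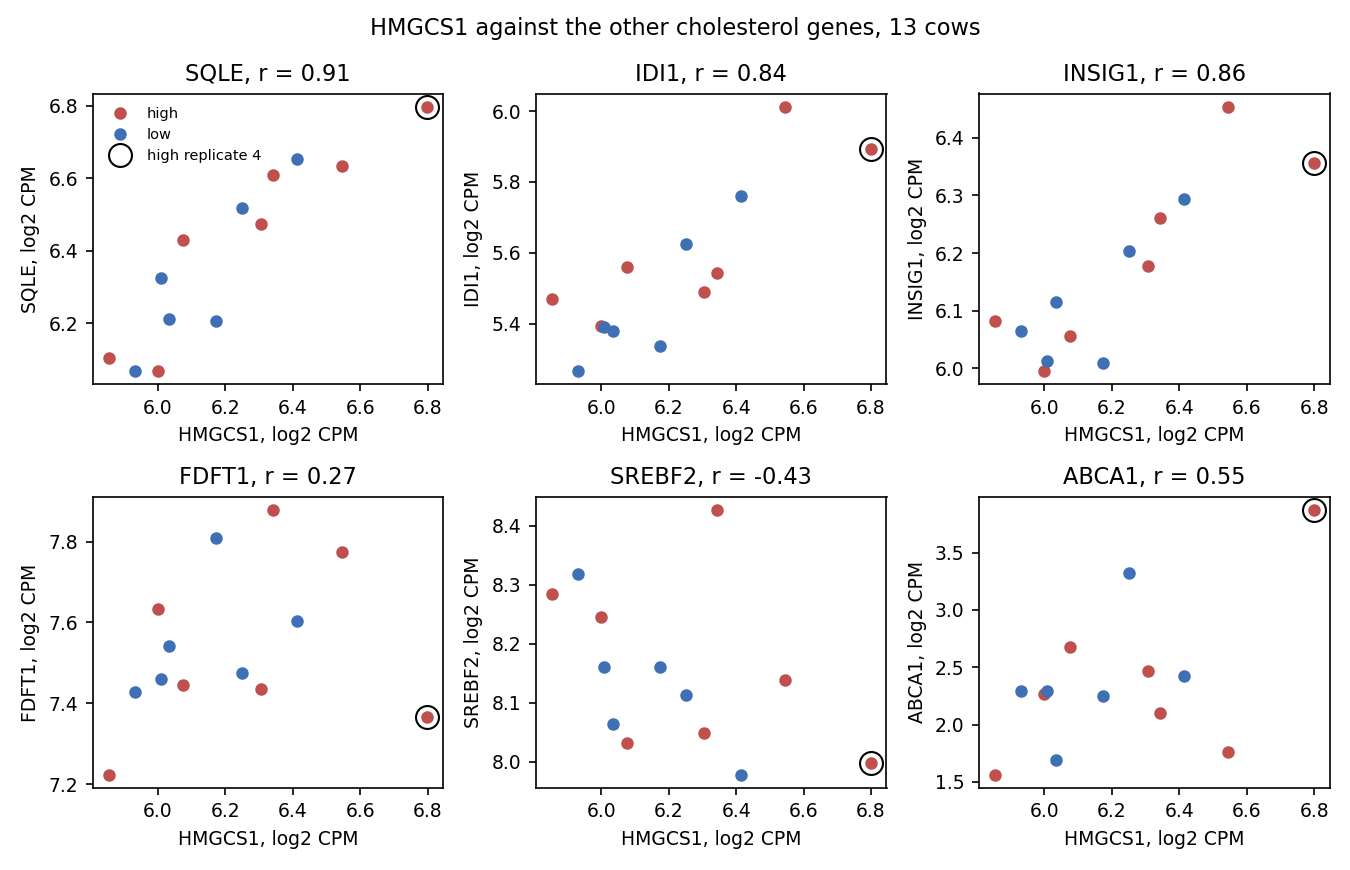
Log2 CPM of *HMGCS1* (horizontal axes) against log2 CPM of each of the other 6 genes (vertical axes) in 13 cows, red for the high and blue for the low group, with r above each panel and high cow 4 ringed. *SQLE*, *IDI1* and *INSIG1* climb with *HMGCS1* in both groups, whereas the ringed cow lies low for *FDFT1* and at the top for *ABCA1* (14.5 CPM).

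The rest of the sterol synthesis pathway also held no gene that passed between the groups. Of 20 enzymes 18 were tested, the 4 above included, and *FDPS* and *SC5D* were not analysed here. None of the 18 passed an adjusted p of 0.05 in edgeR and none had an unadjusted p below 0.05. The log2 fold change was positive for 7 and negative for 11, with a median of -0.03 against 0.01 for all tested genes. The highest was *MSMO1*, a methylsterol oxidase of the later steps, at 0.23 (SE 0.18), with 106 ± 26.0 CPM in the high and 90.9 ± 23.3 CPM in the low group. The lowest was *LSS*, lanosterol synthase, at -0.08 (SE 0.08), with 65.9 ± 3.38 CPM in the high and 69.5 ± 5.01 CPM in the low group.

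Enzymes of one pathway did not all move alike between cows. Each was set against a 5-gene score, the mean of centred log2 CPM of *HMGCS1*, *SQLE*, *IDI1*, *FDFT1* and *INSIG1*, with a gene's own value left out of the score. Over 13 cows, 12 of the 18 enzymes had a positive r, but 4 of these are genes of the score itself. Of the 14 enzymes outside the score, 8 had a positive r (57.1%), with a median of 0.02, against 49% and -0.01 for all 11028 tested genes outside the score, so the enzymes as a list lay near the background. Apart from the 7 genes, *MSMO1* (r = 0.861, rho = 0.857) and *CYP51A1*, the lanosterol demethylase (r = 0.727, rho = 0.731), were the closest. *TM7SF2*, a sterol reductase, was at the other end (r = -0.604, rho = -0.621). These r are descriptions without a test, since the score was built from genes chosen for their function and all values share the same libraries.

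Of the tested genes other than the 7, *MSMO1* had the highest r with the score. The next 9 were *DEGS1* (0.842), *WDFY1* (0.841), *TRIM13* (0.838), *GLCE* (0.835), *TMEM14A* (0.822), *NMT2* (0.814), *SAP30* (0.807), *NT5DC1* (0.792) and *FAM45A* (0.785), with rho from 0.709 to 0.868 over 13 cows. Without the 2 cows farthest from the median of the score, r of the 10 genes was 0.690 to 0.838. *DEGS1* is a desaturase of ceramide synthesis, so it is a lipid enzyme outside the sterol lists. For *ABCA1* the 5 most similar genes were *ZBTB34* (r = 0.930, rho = 0.753), *UFL1* (0.890, 0.742), *HIF1A* (0.888, 0.863), *EMSY* (0.887, 0.841) and *ZMYM4* (0.885, 0.912). Their r was 0.538 to 0.748 without the 2 cows farthest from the median of *ABCA1*. Of these genes, *HIF1A* encodes the oxygen-regulated factor HIF-1 alpha and had 62.2 to 153 CPM.

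Among 13 genes of SREBP processing and sterol sensing, *SREBF2* and *INSIG1* included, all were tested, none passed and none had an unadjusted p below 0.05. Log2 fold changes were positive for 9 and negative for 4, with a median of 0.06, from -0.04 for *ERLIN2* (SE 0.08) to 0.21 for *ERLIN1* (SE 0.16), partner proteins in the endoplasmic reticulum. The median r with the 5-gene score was 0.291 over the 12 genes other than *INSIG1*, which is part of the score. Of these 12, 9 had a positive r (75%), against 49% of all tested genes outside the score. *SCAP*, the escort of SREBP2, was named after its values were seen and had the lowest r of the list, -0.465 (rho = -0.544). That of *SREBF2* was -0.346 (rho = -0.538). In the high group both genes were lowest in high cow 4 (135 and 255 CPM), and these r include that cow.

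Uptake, transport and storage genes held the 1 gene of the cholesterol lists with an unadjusted p below 0.05. Of 16 genes 14 were tested, *CD36* was not analysed here, and *SOAT2*, an enzyme that esterifies cholesterol in liver and gut, had 0 counts in all cows. *VLDLR*, the receptor for very low density lipoprotein, had 12.7, 19.2 and 25.3 CPM as the lowest, median and highest values of the high group and 18.6, 26.2 and 33.2 CPM in the low group. The highest high cows were thus within the range of low cows. The estimate, -0.50 on the log2 scale (SE 0.19, 95% interval -0.90 to -0.11), had an unadjusted p of 0.0165 in edgeR and did not pass after adjustment (adjusted p = 0.998), where 2.09% of all tested genes had an unadjusted p below 0.05. When the haemoglobin share or the interferon score entered the fit as a covariate, its unadjusted p was no longer below 0.05. *MSR1*, a scavenger receptor of macrophages, had the highest log2 fold change of the list, 0.40 (SE 0.24). The median of the list was -0.02, with 5 positive and 9 negative. The median r with the 5-gene score was 0.157.

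Of 16 genes of efflux and the LXR pathway, 10 were tested, with *ABCA1* among them, and none passed or had an unadjusted p below 0.05. The median log2 fold change was -0.03, from -0.15 for *RXRA* (SE 0.18), the partner of LXR on DNA, to 0.28 for *ABCG4* (SE 0.24), a sterol exporter with 16 to 43 counts per cow. The other 6 fell below the low-count filter. *ABCG5* and the oxysterol hydroxylase gene *CYP7B1* had 0 counts in all cows, and *ABCG8* had 2 counts in 1 cow. *APOE* had 36 counts in 8 cows, *APOA1* 21 counts in 8 cows, and *CH25H*, which makes 25-hydroxycholesterol, 14 counts in 5 cows. The highest count in a cow was 18 for *APOE*, 6 for *APOA1* and 4 for *CH25H*, so these 3 genes were detected at a low level in some cows. For *ABCG5* and *CYP7B1* a level below the limits given above was not detectable.

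**Figure D4:**
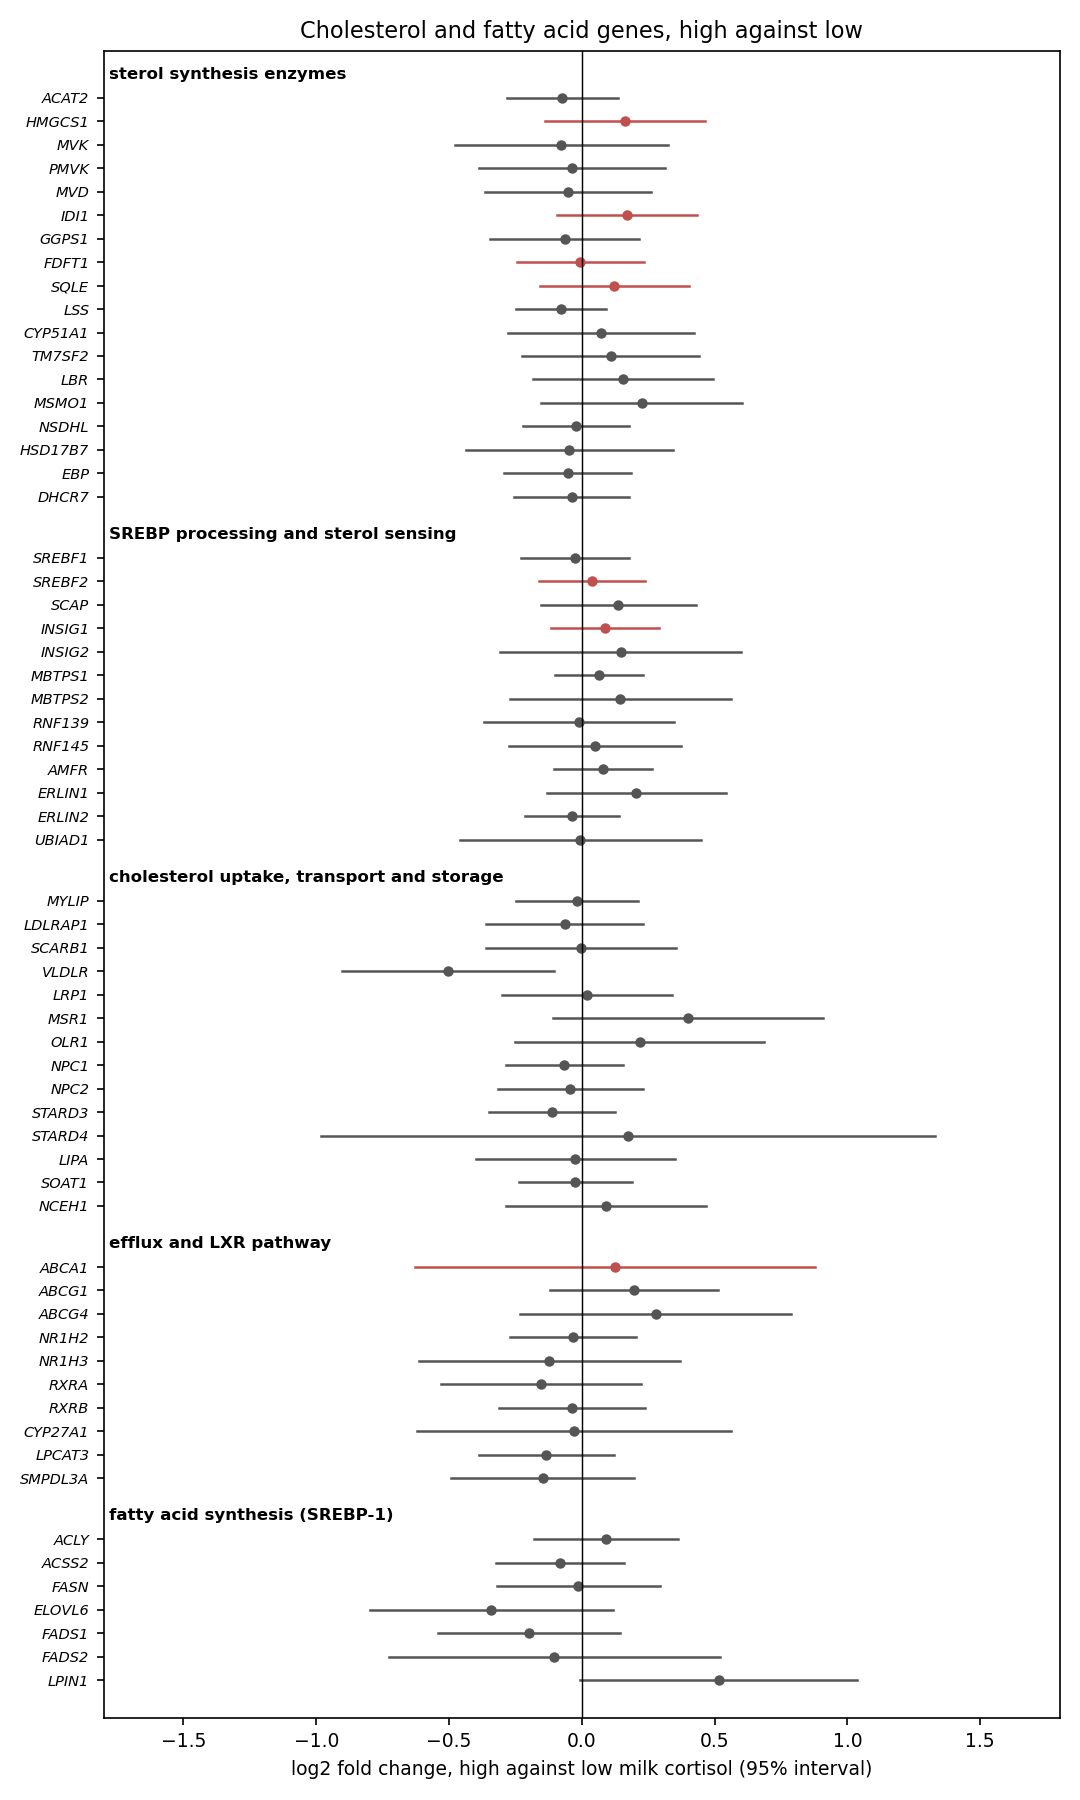
Log2 fold change, high against low milk cortisol (points, horizontal axis), with its 95% interval (lines) for the tested genes of 5 lists, with the 7 genes followed here in red. Every interval but that of *VLDLR* (-0.90 to -0.11) crosses 0, and that of *ABCA1* (-0.63 to 0.88) is among the widest.

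**Figure D5:**
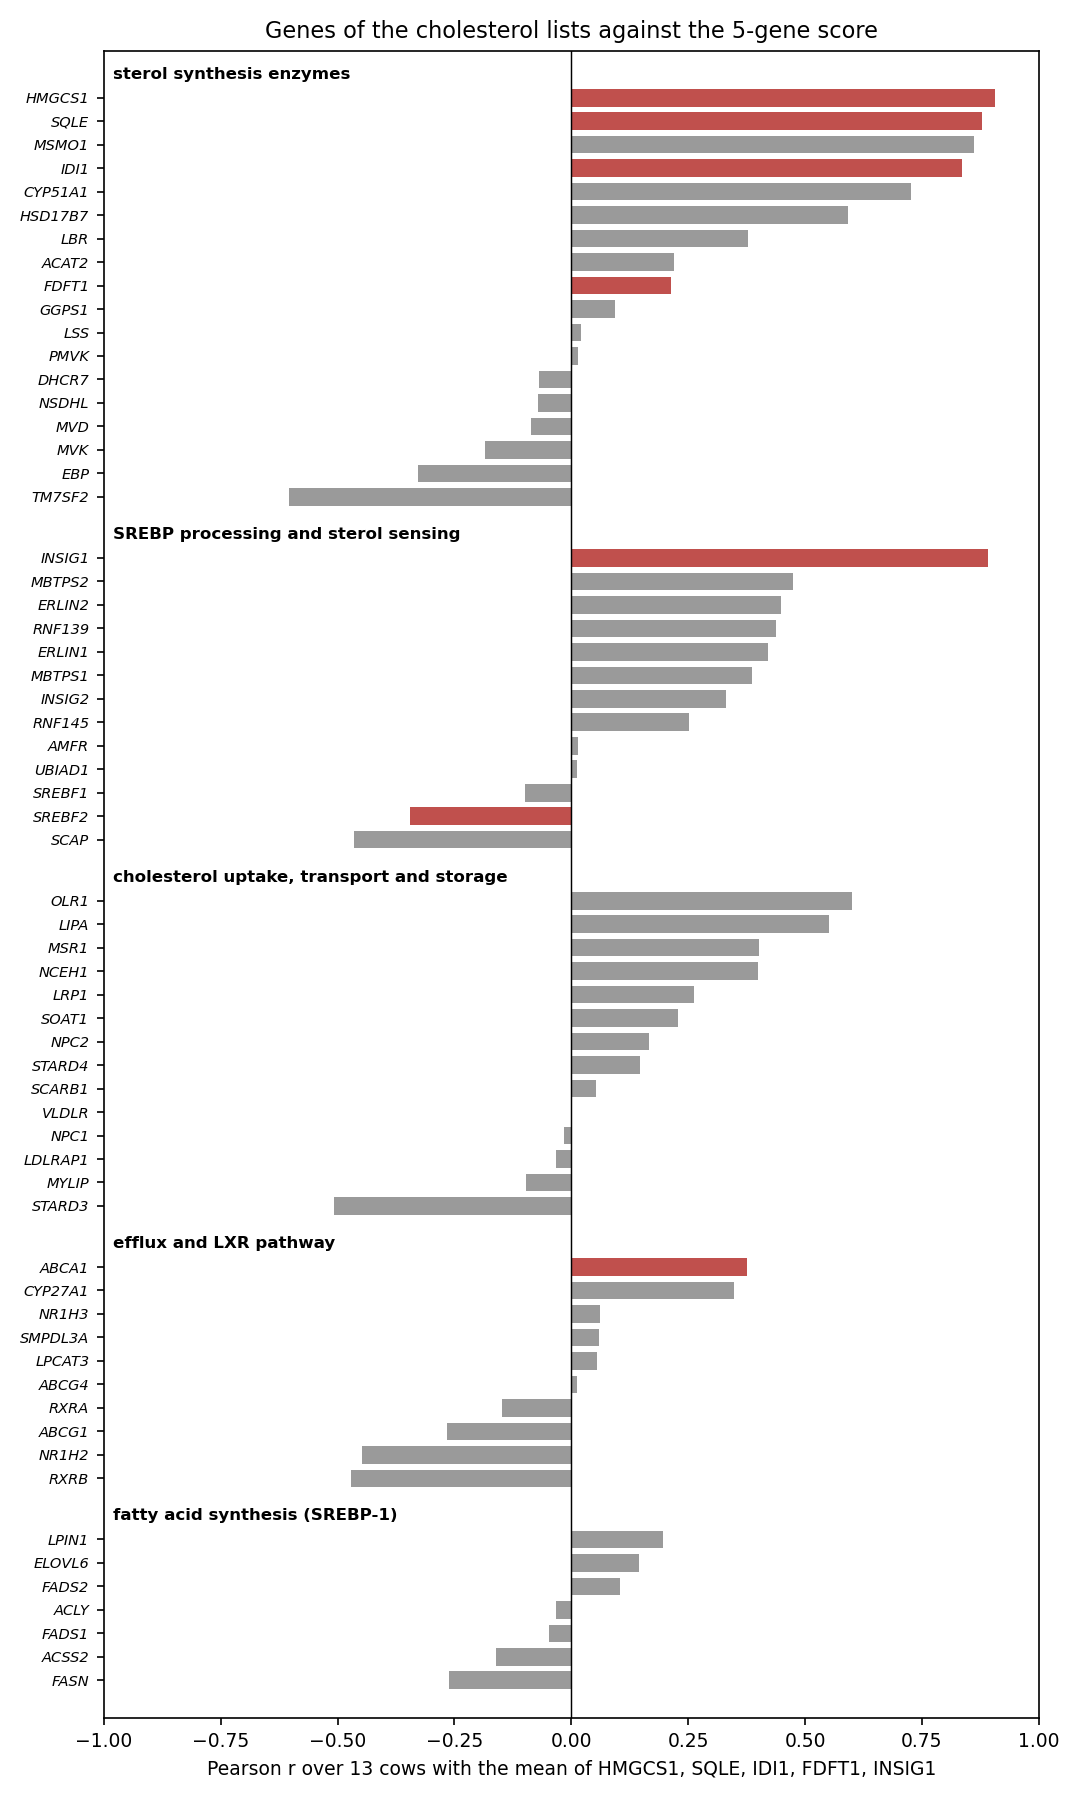
Pearson's r over 13 cows of each tested gene with the 5-gene score (horizontal axis), in 5 lists and in falling order within each, with the 7 genes followed here in red and a gene's own value left out of the score. *HMGCS1*, *SQLE*, *MSMO1*, *IDI1* and *INSIG1* are above 0.8, while *TM7SF2* is at -0.604.

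Blood cell markers and response genes were set beside the 7 genes. The 7 genes and 11 lists of markers gave 77 relations, and none had an adjusted permutation p below 0.05 (smallest 0.656). All 3 with an unadjusted p below 0.05 were with the interferon response list, genes that cells switch on under interferon. Its score had r = -0.697 with *IDI1* (rho = -0.736, permutation p = 0.00877 and 0.00564), -0.657 with *SQLE* (rho = -0.544, permutation p = 0.017 and 0.0594) and -0.581 with *INSIG1* (rho = -0.484, permutation p = 0.0375 and 0.0982), and -0.534 with *HMGCS1*. Without the 2 cows farthest from the median of the score these r were -0.613, -0.414, -0.488 and -0.378. *FDFT1* (r = 0.0862) and *SREBF2* (r = 0.383) did not share the negative sign. The 3 relations are no larger a share of 77 than a threshold of 0.05 lets through by chance. Their genes were also correlated with each other (r from 0.8445 to 0.9091), so the 3 are not separate observations. With the interferon list, r of *IDI1*, *SQLE*, *INSIG1* and *HMGCS1* was -0.829, -0.819, -0.691 and -0.920 within the low group. Within the high group it was -0.500, -0.516, -0.449 and -0.299. Of 14 genes of that list 13 were tested, none of them was at 0 in all cows, and their summed level was 1356 to 4927 CPM in the high and 1795 to 8429 CPM in the low group. In residuals from that score, an alternative chosen after seeing the data, the same 6 pairs of *HMGCS1*, *SQLE*, *IDI1* and *INSIG1* passed, as they did in residuals from the neutrophil minus T cell score. With the glucocorticoid response list r of the 7 genes was -0.132 to 0.414, and with the neutrophil list -0.135 to 0.274. Outside the interferon list, the r farthest from 0 was 0.498, for *SREBF2* with the monocyte list (rho = 0.275, permutation p = 0.0814 and 0.363). The B cell list had r = -0.477 with *INSIG1* and -0.452 with *HMGCS1* (permutation p = 0.0985 and 0.1215).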

How the data were processed

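The deposited values are counts, whole numbers of reads that the authors assigned to each gene name, without normalization. Per the file headers they were made with featureCounts 1.4.6-p3 on exons of Ensembl release 88 for UMD3.1, with no option set for strand, read pairs or multiple mapping, while the study's methods and processing notes name STAR 2.7.3, Subread 1.6.5 and ARS-UCD1.2. The headers also name a folder with the word goat and animal numbers unlike those of the tables, so the group of each cow rests on its label alone. Positions are those of the count tables (UMD3.1), and no exon of the 7 genes overlapped an exon of another named gene. Genes without a name share 1 entry (13.9% to 16.7% of counts), which was left out.

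Counts were scaled with TMM factors to CPM, and to log2 CPM with a prior count of 2. The groups were compared with edgeR 4.0.16 (R 4.3.3, quasi-likelihood, robust) on genes that filterByExpr kept (10 as its minimum count, 15 as its minimum total), with no covariate. A standard error is the size of the fold change over the root of F. Correlations were computed with numpy 2.4.6, with 100000 permutations of cows or, within a group, all orderings. Scripts were also tested on simulated data. Alternatives were DESeq2 1.42.0, limma-voom 3.58.1, other size factors, filters and prior counts, haemoglobin genes left out, covariates, and each cow left out. The covariate and residuals on the interferon score and the residuals on the first principal component were added after seeing the data.

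The 7 genes, the gene lists and the tests were chosen with earlier results of these data known. The genes named are these 7, list genes with an unadjusted p below 0.05, the highest and lowest log2 fold change of each list, list genes below the filter, the 10 genes most similar to the 5-gene score and the 5 most similar to *ABCA1*. *CYP51A1*, *TM7SF2*, *SCAP* and the genes named for all-gene counts were added after their values were seen. Some genes of the lists are not reported here, and list counts leave them out. Methylation data were not analysed here.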

Additional observations from a re-analysis of the deposited data

Results flagged for a closer look

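*ABCA1* stood out in 1 cow of each group on the scale of CPM. High cow 4 had 14.5 CPM, and the next cow of the high group had 6.27 CPM, a gap that is 0.706 of the whole range of the group, above Dixon's limit at the 95% level for 7 samples. Low cow 9 had 9.92 CPM, and the next cow of the low group had 5.24 CPM, a gap of 0.687 of the range, above that for 6 samples. On log2 CPM, a scale tried after seeing the data, the ratios were 0.519 and 0.554, both below these limits, so neither cow stood out on that scale. Both ends of both groups were examined for all 7 genes on CPM, in 28 comparisons, and none of the other 26 passed its limit. Chance alone flags about 1 in 20 groups, or 0.7 of the 14 groups here. High cow 4 was also the cow with the highest score on the first principal component (62.4), and low cow 9 came next (19.1). The sign of this component was set by *ABCA1* itself, so which end is the highest is no separate observation. Low cow 13 (-31.3) and high cow 5 (-28.6) lay farther from 0 than low cow 9. Over 13 cows that component had r = 0.715 with *ABCA1*, and r = 0.441 without the 2 cows farthest from its median, and its part in these values was not tested.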

How the results depend on the processing

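No paired analysis was possible because the groups share no replicate number. None of the 7 genes was called under any alternative to the group test, and none had an unadjusted p below 0.05. DESeq2 called 1 gene of all tested. The genes of the pathway lists with an unadjusted p below 0.05 numbered 1 in the main analysis, 2 with DESeq2, with upper-quartile factors and without a low-count filter, 0 with the haemoglobin share and 3 with the neutrophil minus T cell score as a covariate, and 1 to 2 with a cow left out. With the interferon score as a covariate it was 1, *ELOVL6* in place of *VLDLR*. The log2 fold change of *FDFT1* turned to 0.0081 with upper-quartile factors, 0.163 with the haemoglobin share and 0.0059 with the interferon score, and was -0.062 to 0.0497 with a cow left out. That of *ABCA1* turned to -0.12 with the haemoglobin share and -0.11 with the interferon score (-0.28 to 0.38 with a cow left out), that of *SQLE* to -0.041 with the interferon score, and that of *SREBF2* was -0.0024 to 0.0835 with a cow left out. The 6 pairs of *HMGCS1*, *SQLE*, *IDI1* and *INSIG1* passed under every alternative run. In residuals from the first principal component, which was computed from all tested genes, these included, 10 pairs passed. There r changed sign for *IDI1* and *ABCA1* (-0.266), *FDFT1* and *SREBF2* (-0.0195), *FDFT1* and *ABCA1* (0.177), *INSIG1* and *SREBF2* (0.111) and *INSIG1* and *ABCA1* (-0.37). With library size alone r of *FDFT1* and *SREBF2* was -0.121. With a cow left out r was -0.157 to 0.336 for *IDI1* and *FDFT1*, -0.0014 to 0.416 for *FDFT1* and *INSIG1*, -0.158 to 0.469 for *FDFT1* and *SREBF2*, and -0.0493 to 0.536 for *INSIG1* and *ABCA1*. The cause of these changes was not tested. With 35 to 227 counts per cow, *ABCA1* has the least depth of the 7 genes.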

Other observations

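Fatty acid synthesis, which the related factor SREBP-1 drives, was looked at beside the sterol genes. Of 9 listed genes 7 were tested, and *ACACA* and *SCD* were not analysed here. None passed an adjusted p of 0.05 in edgeR and none had an unadjusted p below 0.05 in the main analysis. *LPIN1*, a phosphatidate phosphatase of triglyceride synthesis, had the highest log2 fold change of all 5 lists, 0.52 (SE 0.25, unadjusted p = 0.0522), with 5.73 ± 1.89 CPM in the high group and 3.96 ± 1.09 CPM in the low group. Its unadjusted p was below 0.05 with DESeq2, with upper-quartile factors, with the neutrophil minus T cell score as a covariate, and without high cow 2, high cow 7, low cow 8 or low cow 11, and it was called in none of these. *ELOVL6*, an elongase, had the lowest of this list, -0.34 (SE 0.22), and with the interferon score as a covariate it was the 1 gene of the 5 lists with an unadjusted p below 0.05. The median log2 fold change was -0.08, and the median r with the 5-gene score was -0.03, close to the -0.01 of all tested genes.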
